A study of Saccharomyces cerevisiae with 15 samples.

Results

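The 10 genes described here encode the enzymes that phosphorylate hexoses and carry them to the phosphofructokinase step of glycolysis in budding yeast, together with the enzymes that set the level of the regulator of that step. They were chosen by function: the hexokinases HXK1 (YFR053C) and HXK2 (YGL253W), the glucokinase GLK1 (YCL040W) and its paralogue EMI2 (YDR516C), the phosphoglucose isomerase PGI1 (YBR196C), the phosphofructokinase subunits PFK1 (YGR240C) and PFK2 (YMR205C), and PFK26 (YIL107C), PFK27 (YOL136C) and FBP26 (YJL155C), which make and remove fructose 2,6-bisphosphate. The choice was made with earlier results of these data known. All 10 were measured among 5449 genes, each by 1 probe set. The arrays came from strain YPH499 carrying the plasmid pEG(KG) with the human kinase IRAK4, a catalytically inactive version of it named IRAK4(KD), IRAK1 or IRAK2, or the empty plasmid (Control). In human cells IRAK kinases relay signals of innate immune receptors. Cultures of all 5 groups were kept at 30 °C for 18 h in raffinose and then for 6 h in galactose, which switches on the GAL1 promoter of the plasmid, so every difference below is one between cultures that changed sugar in the same way. The 15 Affymetrix arrays were split evenly, with 3 biological replicates for each group. The arrays held no human probe set, so how much of each kinase the cells made was not measured here.

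A hexose must carry a phosphate before it can enter glycolysis. Hexokinases place it on glucose and fructose, and glucokinase on glucose, whereas galactose reaches glucose 6-phosphate through its own pathway. Hxk2 is the main hexokinase of yeast growing on glucose and also takes part in glucose repression, the silencing of genes for other carbon sources. HXK1 and GLK1 belong to the genes that glucose represses. Pgi1 turns glucose 6-phosphate into fructose 6-phosphate, and phosphofructokinase, built from Pfk1 and Pfk2 chains, commits it to glycolysis. Fructose 2,6-bisphosphate activates that enzyme and inhibits its opponent, fructose 1,6-bisphosphatase (Fbp1).

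Values are the deposited log2 expression values, and levels of different genes are not ranked, because probe sets differ in brightness. Differences are log2 differences ± the standard error of limma. A gene is said to have risen or fallen only where its adjusted p was under 0.05, after Benjamini-Hochberg adjustment over all 5449 genes. Replicate arrays correlated across genes at 0.968 to 0.998. IRAK1 replicate 1 gave the 2 lowest, both 0.968, with the other IRAK1 arrays, which correlated at 0.994 with each other. One spread per gene, which includes that array, enters every comparison, and calls of the 10 genes that change without that array are given beside the result. The galactose-induced genes lay between 13.14 and 13.50 (GAL1), 12.81 and 13.35 (GAL7) and 12.75 and 13.13 (GAL10) on the 15 arrays. Of these only GAL7 was called against Control, higher by 0.33 ± 0.06 with IRAK4, by 0.29 ± 0.06 with IRAK4(KD) and by 0.25 ± 0.06 with IRAK1. Against the other kinase groups IRAK2 was lower in GAL1 and GAL7, at -0.21 ± 0.07 and -0.51 ± 0.06 against IRAK4, -0.23 ± 0.07 and -0.48 ± 0.06 against IRAK4(KD) and -0.25 ± 0.07 and -0.43 ± 0.06 against IRAK1. GAL10 was lower in IRAK2 than in IRAK1 (-0.28 ± 0.07). The part of these shifts in the results below was not tested. The strain is of mating type a. The genes of a cells read 8.53 to 9.88 (MFA1), 8.76 to 10.23 (MFA2), 8.08 to 9.99 (STE2), 9.07 to 10.04 (STE6) and 5.94 to 8.16 (BAR1). Those of the opposite mating type read 2.62 to 4.25 (MF(ALPHA)1), 4.59 to 5.39 (MF(ALPHA)2), 5.40 to 6.57 (STE3) and 7.64 to 8.77 (SAG1), so the ranges of the 2 lists overlap through BAR1 and SAG1, and without detection calls they do not settle the mating type. In bulk cultures a change in every cell and a change in some of the cells cannot be told apart.

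In IRAK4 5 of the 10 genes rose and 1 fell, where 28.2% of all genes rose and 16.4% fell (44.6% called in all). In IRAK4(KD) 7 rose (11.7% of all genes) and 0 fell (6% of all genes, 17.7% called in all). At an unadjusted p under 0.05 limma gave 7 higher and 1 lower in IRAK4(KD). In IRAK1 5 rose and 2 fell, against 30.6% and 28.2% of all genes, and 58.7% called in all. In IRAK2 only GLK1 fell (3.38% of all genes fell) and 0 rose (5.82% of all genes, 9.19% called in all). At an unadjusted p under 0.05 limma gave 0 higher and 3 lower in IRAK2. The 10 genes had a median difference of 0.31 in IRAK4 (0.08 over all genes), of 0.37 in IRAK4(KD) (0.07 over all genes), of 0.39 in IRAK1 (0.02 over all genes) and of -0.06 in IRAK2 (0.01 over all genes). Arrays of kinase and Control did not overlap for 7 of the 10 genes in IRAK4 (61.7% of all genes), for 9 in IRAK4(KD) (48.5% of all genes), for 7 in IRAK1 (60.4% of all genes) and for 2 in IRAK2 (42.8% of all genes). The counts called, 6 of 10 in IRAK4 and 7 of 10 in IRAK1, are thus somewhat above the shares of all genes. The 7 of 10 in IRAK4(KD) lies further above its share. This is a description without a test, of genes chosen with earlier results of these data known. These 4 comparisons share the Control arrays. Over all genes IRAK4 had 1539 higher and 893 lower calls, but 1285 and 1166 after median centring and 1222 and 1173 after quantile normalization. IRAK4(KD) had 640 higher and 327 lower calls, but 538 and 424 after median centring and 495 and 410 after quantile normalization. The count in IRAK4(KD) was 3 without Control replicate 3 and 3 without IRAK4(KD) replicate 2, where 325 and 446 of all 5449 genes were called. The count in IRAK2 was 0 without Control replicate 2 or without IRAK2 replicate 1, and 2 without IRAK1 replicate 1. In these 3 fits 177, 300 and 1180 of all genes were called.

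**Figure D1:**
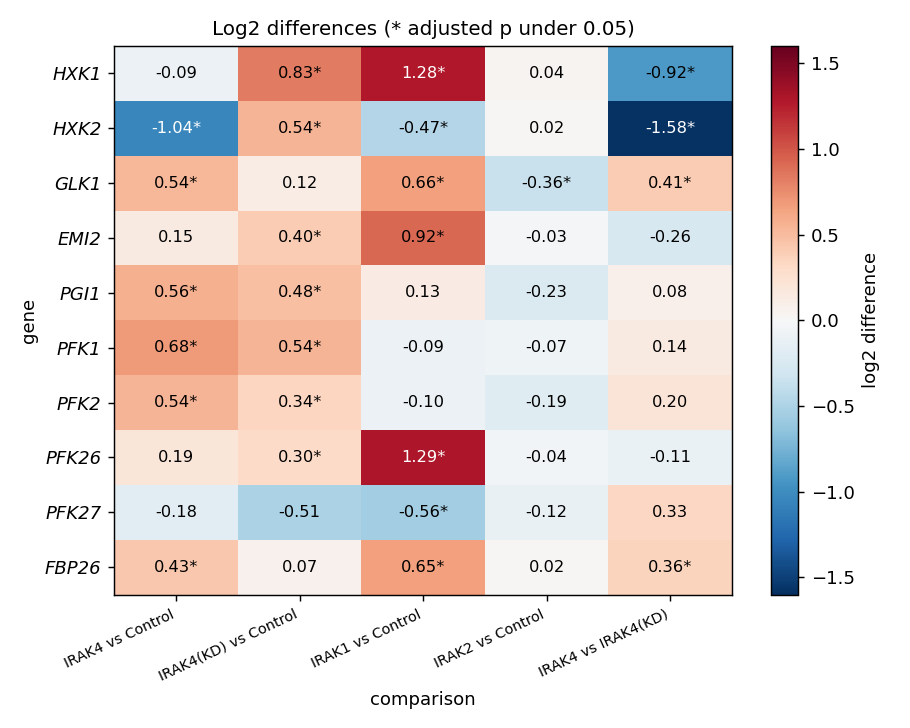
Log2 differences of the 10 genes (rows) in the 4 comparisons with Control and in IRAK4 against IRAK4(KD) (columns), with red for higher and blue for lower in the group named first and an asterisk where the adjusted p was under 0.05. No column is of 1 colour among the asterisks except IRAK4(KD) against Control, where 7 genes are higher, and IRAK2 against Control, where 1 gene is lower.

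HXK2, the main hexokinase gene of cells on glucose, separated the 2 forms of IRAK4 more than any other of the 10 genes. Its log2 values were 11.04, 10.96 and 11.05 in IRAK4. In IRAK4(KD) they were 12.57, 12.66 and 12.58, so the arrays of the active and the inactive kinase lay on opposite sides of those of Control. IRAK1 arrays read 12.01, 11.30 and 11.46, IRAK2 arrays 12.05, 12.14 and 12.04, and Control arrays 12.22, 12.04 and 11.92. HXK2 fell by 1.04 ± 0.14 in IRAK4 (adjusted p = 4.42e-05), to 0.486 of the Control level. Of all genes 1.71% had a more negative difference there. It rose by 0.54 ± 0.14 in IRAK4(KD) (adjusted p = 0.0169), or 1.46-fold. That call ended without Control replicate 2 (0.53, adjusted p = 0.0586), Control replicate 3 (0.47, adjusted p = 0.0914) or IRAK4(KD) replicate 2 (0.51, adjusted p = 0.0658).

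Between the active and the inactive kinase HXK2 differed by -1.58 ± 0.14 (adjusted p = 1.33e-06), 2.99-fold lower in IRAK4, and 0.239% of all genes had a more negative difference. In IRAK1 HXK2 fell by 0.47 ± 0.14 (adjusted p = 0.0102). IRAK1 replicate 1 read 0.63 above the mean of the other 2 IRAK1 arrays and inside the range of the Control arrays. Without it HXK2 stood at -0.68 against Control (adjusted p = 1.33e-05). The call ended without IRAK1 replicate 2 (-0.32, adjusted p = 0.0554) and in a fit of the 6 arrays of IRAK1 and Control alone (adjusted p = 0.0809). In IRAK2 the difference was 0.02 ± 0.14. From high to low the group means ran IRAK4(KD), IRAK2, Control, IRAK1 and IRAK4, and of the neighbours in this order only IRAK2 and Control did not differ at the threshold.

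HXK1, the second hexokinase gene, followed another order. Its log2 values were 11.19, 11.32 and 11.31 in IRAK4, 12.23, 12.27 and 12.09 in IRAK4(KD), 12.59, 12.83 and 12.52 in IRAK1, 11.44, 11.39 and 11.38 in IRAK2 and 11.59, 11.35 and 11.15 in Control. All IRAK4(KD) and IRAK1 arrays lay above all Control arrays, while those of IRAK4 and IRAK2 lay within the Control range. HXK1 rose by 0.83 ± 0.11 in IRAK4(KD) (adjusted p = 0.000188), or 1.78-fold, a difference that 0.752% of all genes exceeded. It rose by 1.28 ± 0.11 in IRAK1 (adjusted p = 2.84e-07), or 2.43-fold, which 4.06% of all genes exceeded. In IRAK4 and IRAK2 it stood at -0.09 ± 0.11 (adjusted p = 0.520) and 0.04 ± 0.11 (adjusted p = 0.860) against Control. Active IRAK4 was 0.92 ± 0.11 lower than IRAK4(KD) on the log2 scale, a difference coded as -0.92 (adjusted p = 1.96e-05). From high to low the means ran IRAK1, IRAK4(KD), IRAK2, Control and IRAK4. Neighbours among the last 3 did not differ at the threshold.

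The balance of the 2 hexokinase genes can be read within each array, where a log2 shift common to all genes of the array cancels. HXK1 minus HXK2 was 0.14, 0.36 and 0.26 in IRAK4, -0.33, -0.39 and -0.49 in IRAK4(KD), 0.58, 1.53 and 1.06 in IRAK1, -0.61, -0.75 and -0.66 in IRAK2 and -0.63, -0.69 and -0.77 in Control. The sign of a single value carries no meaning, since it depends on the brightness of 2 probe sets, but its shift between groups does. The shift from Control was 0.95 for IRAK4 and 0.29 for IRAK4(KD), and it was 1.75 for IRAK1 and 0.02 for IRAK2. After quantile normalization these shifts were 0.94, 0.28, 1.81 and 0.02. All arrays of the first 3 groups lay above all Control arrays, and those of IRAK2 overlapped them. In IRAK4 the shift came with a lower HXK2, and in IRAK1 with a higher HXK1 and a lower HXK2. In IRAK4(KD) both genes were higher. GLK1 minus HXK2 shifted by 1.58 in IRAK4 and 1.12 in IRAK1, and by -0.42 in IRAK4(KD) and -0.37 in IRAK2, with no overlap with Control in any of the 4 groups. Whether probes of HXK1 also bind RNA of HXK2 was not tested.

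**Figure D2:**
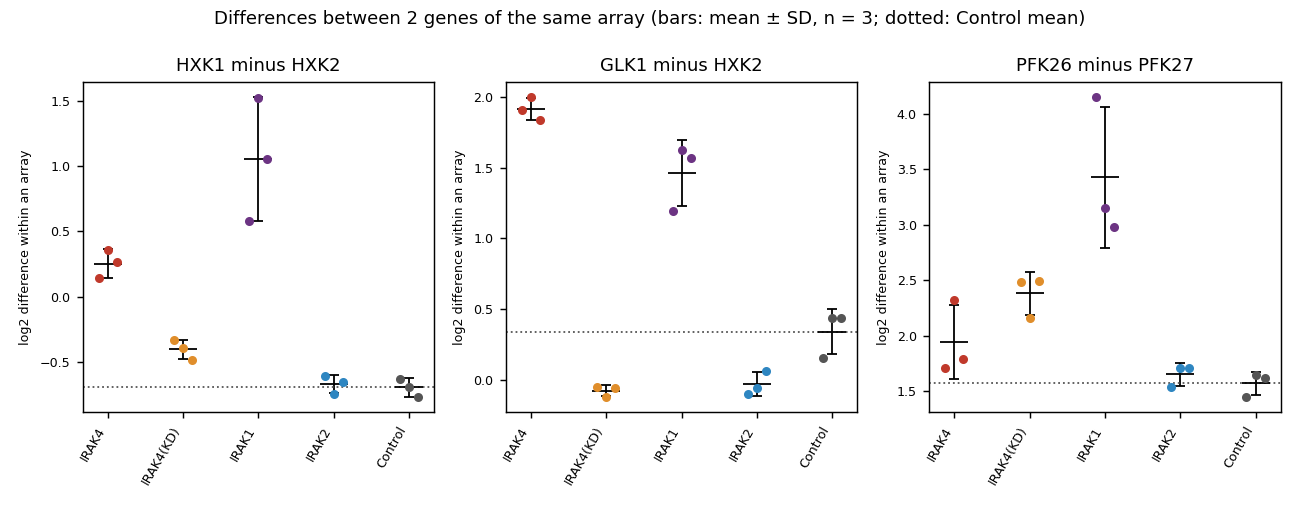
Log2 differences between 2 genes of the same array (y axis) by group (x axis) for HXK1 minus HXK2, GLK1 minus HXK2 and PFK26 minus PFK27. Points are arrays, bars the mean ± SD of 3 arrays and the dotted line the Control mean. HXK1 minus HXK2 was 0.95 above Control in IRAK4 and 1.75 above it in IRAK1, and IRAK2 arrays overlap Control.

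GLK1, the glucokinase gene, was higher with active IRAK4 and IRAK1 and lower with IRAK2. Its log2 values were 12.95, 12.96 and 12.89 in IRAK4, 12.52, 12.54 and 12.52 in IRAK4(KD), 13.21, 12.93 and 13.03 in IRAK1, 11.95, 12.08 and 12.10 in IRAK2 and 12.37, 12.47 and 12.36 in Control. No array of any kinase group fell inside the Control range. GLK1 rose by 0.54 ± 0.08 in IRAK4 (adjusted p = 0.000115) and by 0.66 ± 0.08 in IRAK1 (adjusted p = 9.55e-06), or 1.45-fold and 1.58-fold. In IRAK4(KD) it stood at 0.12 ± 0.08 (adjusted p = 0.286), although the arrays did not overlap. It fell by 0.36 ± 0.08 in IRAK2 (adjusted p = 0.0133), the single change called among the 10 genes in that group. That call ended without Control replicate 2 (-0.32, adjusted p = 0.0765) or IRAK2 replicate 1 (-0.31, adjusted p = 0.0592). Directly compared, GLK1 was 0.41 ± 0.08 higher in IRAK4 than in IRAK4(KD) (adjusted p = 0.00122), the opposite direction to both hexokinase genes.

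EMI2, the paralogue of GLK1, rose by 0.92 ± 0.10 in IRAK1 (adjusted p = 2.80e-06), or 1.89-fold. It read 9.68, 9.75 and 9.38 in IRAK4, 9.79, 9.90 and 9.89 in IRAK4(KD), 10.47, 10.43 and 10.23 in IRAK1, 9.42, 9.49 and 9.35 in IRAK2 and 9.48, 9.47 and 9.43 in Control. The IRAK1 arrays stood above all other arrays. In IRAK4(KD) EMI2 rose by 0.40 ± 0.10 (adjusted p = 0.0142), a call that ended without Control replicate 3 (0.39, adjusted p = 0.0638) or IRAK4(KD) replicate 2 (0.38, adjusted p = 0.0541). In IRAK4 the difference was 0.15 ± 0.10 (adjusted p = 0.237), with replicate 3 below all Control arrays and the other 2 above them. Without IRAK4 replicate 3 it was 0.26 (adjusted p = 0.0325). In IRAK2 it was -0.03 ± 0.10. From high to low EMI2 ran IRAK1, IRAK4(KD), IRAK4, Control and IRAK2, and only IRAK1 and IRAK4(KD) differed among neighbours.

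**Figure D3:**
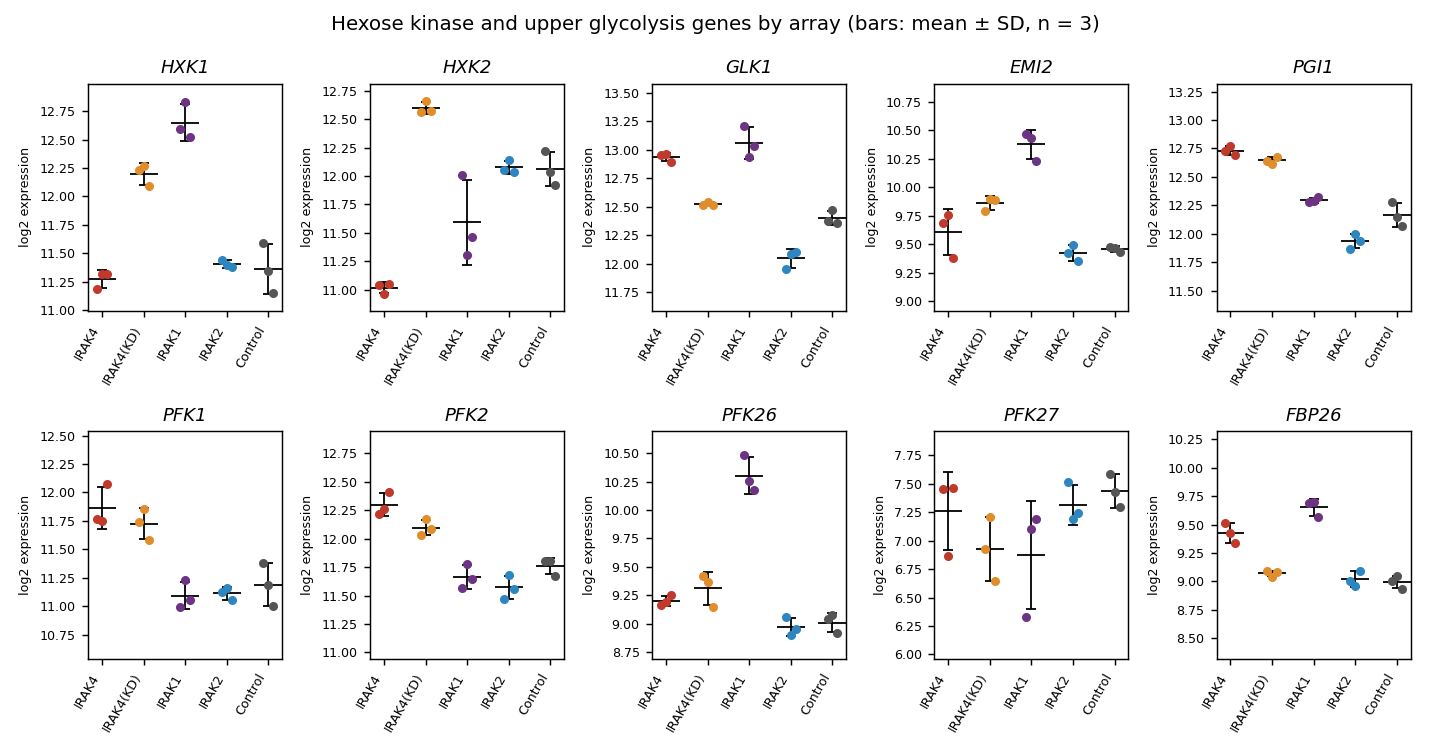
Log2 expression (y axis) of the 10 genes by group (x axis). Points are arrays and bars the mean ± SD of 3 arrays, and all panels span the same number of log2 units. HXK2 is lowest in IRAK4 (10.96 to 11.05) and highest in IRAK4(KD) (12.57 to 12.66), and PFK26 stands apart in IRAK1 (10.17 to 10.48).

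The next steps, isomerase and phosphofructokinase, rose with both forms of IRAK4. PGI1 read 12.73, 12.77 and 12.69 in IRAK4, 12.64, 12.62 and 12.68 in IRAK4(KD), 12.28, 12.29 and 12.32 in IRAK1, 11.87, 11.995 and 11.94 in IRAK2 and 12.28, 12.15 and 12.07 in Control. It was 0.56 ± 0.07 higher in IRAK4 (adjusted p = 2.61e-05) and 0.48 ± 0.07 higher in IRAK4(KD) (adjusted p = 0.000506). Active and inactive IRAK4 differed by 0.08 ± 0.07 (adjusted p = 0.382), although their arrays did not overlap. After quantile normalization that difference was 0.19 (adjusted p = 0.0384). In IRAK1 PGI1 stood at 0.13 ± 0.07 (adjusted p = 0.126), and at 0.19 after quantile normalization (adjusted p = 0.0261). In IRAK2 it stood at -0.23 ± 0.07 (adjusted p = 0.0574), with all IRAK2 arrays below all Control arrays. Without IRAK1 replicate 1 in the estimate of the spread, the same difference had an adjusted p of 0.0257.

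PFK1 read 11.77, 11.75 and 12.08 in IRAK4, 11.74, 11.86 and 11.58 in IRAK4(KD), 10.995, 11.23 and 11.06 in IRAK1, 11.13, 11.16 and 11.05 in IRAK2 and 11.38, 11.19 and 10.9997 in Control. Both IRAK4 groups lay above Control, and IRAK1 and IRAK2 overlapped it. PFK1 rose by 0.68 ± 0.12 in IRAK4 (adjusted p = 0.000353) and by 0.54 ± 0.12 in IRAK4(KD) (adjusted p = 0.00725). PFK2 read 12.22, 12.26 and 12.41 in IRAK4, 12.04, 12.17 and 12.09 in IRAK4(KD), 11.57, 11.78 and 11.65 in IRAK1, 11.47, 11.68 and 11.56 in IRAK2 and 11.80, 11.80 and 11.68 in Control. It rose by 0.54 ± 0.09 in IRAK4 (adjusted p = 0.000194) and by 0.34 ± 0.09 in IRAK4(KD) (adjusted p = 0.0166). In IRAK4(KD) PFK2 was no longer called without Control replicate 3 (0.30, adjusted p = 0.0914), without IRAK4(KD) replicate 2 (0.30, adjusted p = 0.0731) and after quantile normalization (0.25, adjusted p = 0.0560).

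The 2 subunit genes kept close to each other. PFK1 minus PFK2 within an array shifted from Control by 0.14 for IRAK4 and 0.20 for IRAK4(KD), and by 0.002 for IRAK1 and 0.11 for IRAK2, and all 4 groups overlapped Control. In IRAK1 PFK1 stood at -0.09 ± 0.12 and PFK2 at -0.10 ± 0.09, and in IRAK2 PFK1 stood at -0.07 ± 0.12 and PFK2 at -0.19 ± 0.09, none of them called. IRAK1 and active IRAK4 differed in all 3 genes: PGI1 by -0.43 ± 0.07 (adjusted p = 0.000199), PFK1 by -0.77 ± 0.12 (adjusted p = 9.71e-05) and PFK2 by -0.64 ± 0.09 (adjusted p = 3.67e-05), each lower in IRAK1.

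Among the genes of fructose 2,6-bisphosphate, PFK26 and FBP26 had their largest differences from Control in IRAK1. PFK26, which encodes a kinase that makes this activator, read 10.48, 10.26 and 10.17 in IRAK1 and 9.04, 9.07 and 8.91 in Control. It rose there by 1.29 ± 0.10 (adjusted p = 8.42e-08), or 2.45-fold, and 4.001% of all genes had a higher difference. The arrays of IRAK4 read 9.17, 9.19 and 9.25, those of IRAK4(KD) 9.42, 9.36 and 9.15 and those of IRAK2 9.06, 8.90 and 8.95, so IRAK1 stood apart from every other group. PFK26 rose by 0.30 ± 0.10 in IRAK4(KD) (adjusted p = 0.0437). Leaving out any Control array or IRAK4(KD) replicate 1 or 2 ended that call (0.25 to 0.33), as did centring the arrays on their medians (0.26, adjusted p = 0.0574). In IRAK4 it stood at 0.19 ± 0.10 (adjusted p = 0.113) and in IRAK2 at -0.04 ± 0.10.

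PFK27, the second kinase gene of this step, had the widest spread between replicates, and its error is the largest of the 10. It read 7.46, 6.86 and 7.46 in IRAK4, 6.93, 7.21 and 6.65 in IRAK4(KD), 6.33, 7.10 and 7.19 in IRAK1, 7.52, 7.19 and 7.24 in IRAK2 and 7.59, 7.43 and 7.29 in Control. All arrays of IRAK4(KD) and IRAK1 lay below all Control arrays. PFK27 fell by 0.56 ± 0.22 in IRAK1 (adjusted p = 0.0387), a call that rested on IRAK1 replicate 1, which read 0.81 below the mean of the other 2. Without that array the difference was -0.29 (adjusted p = 0.180). With the replicate number as a block the adjusted p was 0.0577. The call also ended without Control replicate 1 (-0.49, adjusted p = 0.116) or Control replicate 2 (-0.56, adjusted p = 0.0765), with array weights (-0.33, adjusted p = 0.0921) and in the 6 arrays alone (adjusted p = 0.0786). In IRAK4(KD) PFK27 stood at -0.51 ± 0.22 (adjusted p = 0.116), and without IRAK1 replicate 1 in the spread the same difference had an adjusted p of 0.0268.

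PFK26 minus PFK27 within an array shifted from Control by 1.86 in IRAK1, 0.81 in IRAK4(KD), 0.37 in IRAK4 and 0.08 in IRAK2. The IRAK1 arrays read 4.15, 3.15 and 2.98, so replicate 1 raised that shift, and the Control arrays read 1.45, 1.64 and 1.62. Arrays of IRAK2 alone overlapped Control. FBP26, which encodes the phosphatase that removes fructose 2,6-bisphosphate, read 9.52, 9.42 and 9.34 in IRAK4, 9.09, 9.04 and 9.08 in IRAK4(KD), 9.69, 9.70 and 9.56 in IRAK1, 9.003, 8.96 and 9.09 in IRAK2 and 9.001, 9.05 and 8.94 in Control. It rose by 0.43 ± 0.07 in IRAK4 (adjusted p = 0.000356) and by 0.65 ± 0.07 in IRAK1 (adjusted p = 4.72e-06), or 1.35-fold and 1.57-fold. In IRAK4(KD) it stood at 0.07 ± 0.07 and in IRAK2 at 0.02 ± 0.07, and both overlapped Control. In IRAK1 the kinase gene PFK26 and the phosphatase gene FBP26 thus rose together, and PFK26 minus FBP26 shifted by 0.64.

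**Figure D4:**
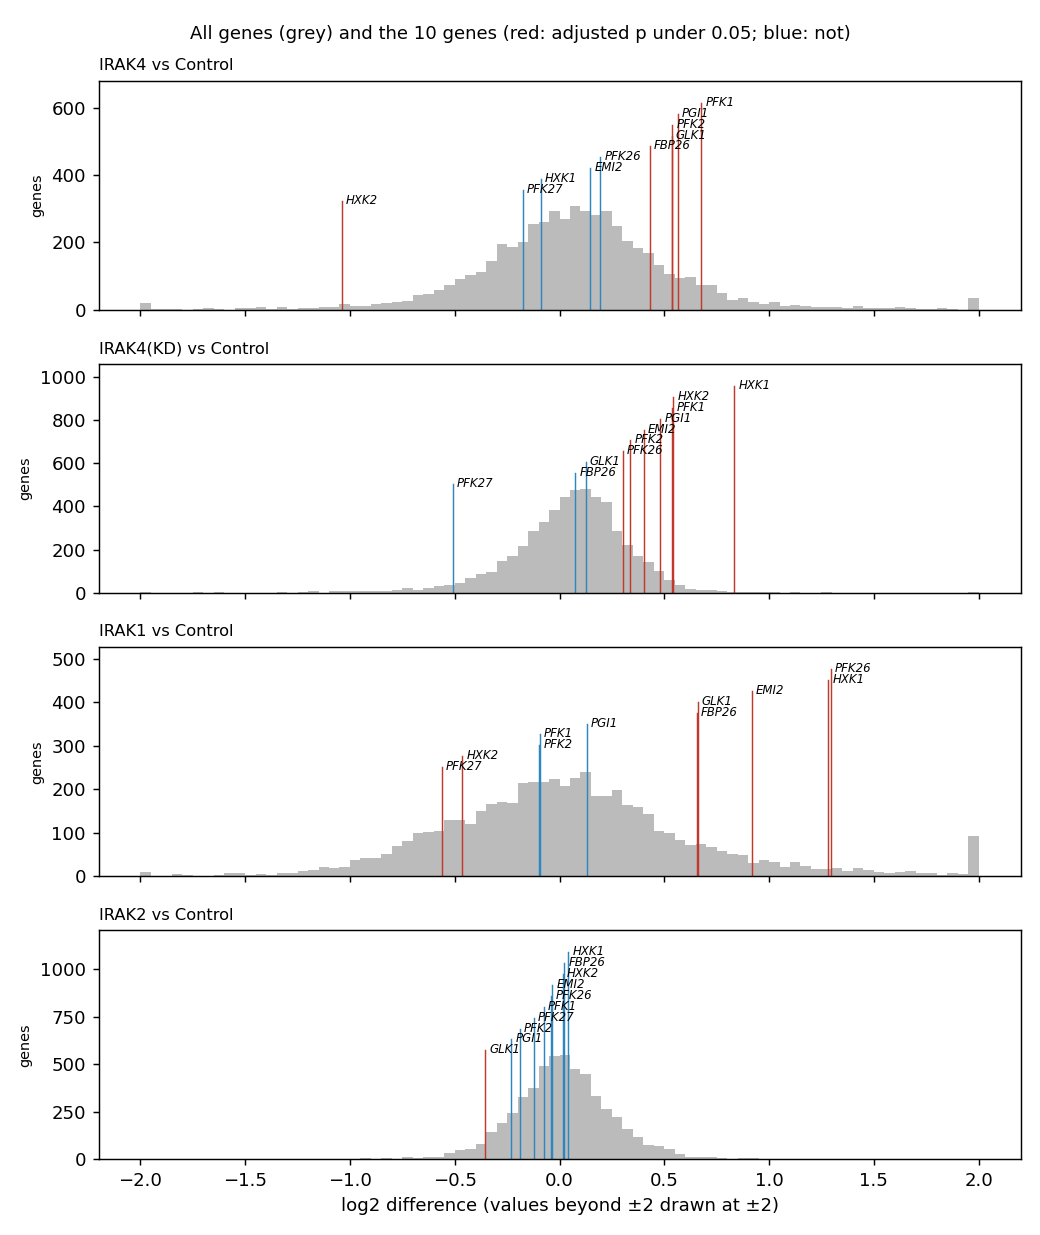
Number of genes (y axis) by log2 difference from Control (x axis) in the 4 kinase groups. Lines mark the 10 genes, red where the adjusted p was under 0.05 and blue where it was not, and their heights serve only to separate the names. HXK2 lies at -1.04 in IRAK4, HXK1 at 0.83 in IRAK4(KD) and HXK1 and PFK26 at 1.28 and 1.29 in IRAK1.

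Directly compared, active and inactive IRAK4 differed in 4 of the 10 genes (34.9% of all genes): HXK1 and HXK2 were lower in IRAK4 (15.3% of all genes), and GLK1 and FBP26, at 0.36 ± 0.07 (adjusted p = 0.00197), were higher (19.7% of all genes). Arrays did not overlap for 7 of the 10 (52.4% of all genes). EMI2 was at -0.26 ± 0.10 (adjusted p = 0.0568), with no overlap between the arrays, and at the same difference the adjusted p was 0.0405 with the replicate number as a block and 0.0334 without IRAK1 replicate 1. PFK2 stood at 0.20 ± 0.09 (adjusted p = 0.0852), with an adjusted p of 0.0480 without that array. The count without it was 6, where 2548 of all 5449 genes were called. PFK1, PFK26 and PFK27 overlapped between the 2 groups. IRAK1 differed from active IRAK4 in 8 genes (46.3% of all genes), 5 higher (18.3%) and 3 lower (28%), and arrays did not overlap for 8 (46.3%). HXK1 was 1.37 ± 0.11 higher (adjusted p = 1.89e-07), PFK26 1.10 ± 0.10 higher (adjusted p = 5.14e-07), EMI2 0.77 ± 0.10 higher (adjusted p = 2.01e-05) and HXK2 0.57 ± 0.14 higher (adjusted p = 0.00372). FBP26 was at 0.22 ± 0.07 (adjusted p = 0.0230), a call that ended without IRAK4 replicate 2 or 3 or IRAK1 replicate 2 (0.18 to 0.22).

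IRAK1 differed from IRAK4(KD) in 9 genes (57.4% of all genes), 5 higher (25.9%) and 4 lower (31.5%), and arrays did not overlap for the same number, 9 (57.4%). PFK27 stood at -0.05 ± 0.22. HXK2 was 1.01 ± 0.14 lower in IRAK1, a difference coded as -1.01 (adjusted p = 2.65e-05), while HXK1 was 0.45 ± 0.11 higher (adjusted p = 0.00277). IRAK2 was lower than IRAK4(KD) in 8 genes and higher in 0 (16.2% and 10.4% of all genes, 26.6% called in all), and limma gave 0 higher and 8 lower at an unadjusted p under 0.05. HXK1 and PGI1 stood at -0.79 ± 0.11 and -0.71 ± 0.07 in that comparison, in which arrays did not overlap for 8 genes (53.9% of all genes). The count was 6 to 8 with single arrays left out. The 1448 genes called in all were 799 without IRAK2 replicate 3 and 871 without IRAK2 replicate 1. They were 802 when IRAK4(KD) replicate 2 was left out, 872 when it was IRAK4(KD) replicate 1 and 2213 when it was IRAK1 replicate 1. IRAK2 differed from active IRAK4 in 6 genes (50.8% of all genes). Of these 5 were lower (29.4%), led by GLK1 at -0.89 ± 0.08 (adjusted p = 7.04e-07), and 1 was higher (21.4%), HXK2 at 1.06 ± 0.14 (adjusted p = 2.45e-05). Arrays did not overlap for 8 genes (65.4%). PFK26 stood at -0.23 ± 0.10 (adjusted p = 0.0551), and without IRAK1 replicate 1 at an adjusted p of 0.0203. Over all genes this comparison had 1166 higher and 1604 lower calls, but 1424 and 1397 after quantile normalization. IRAK2 differed from IRAK1 in 7 genes (59.8% of all genes), 6 lower (29.2%) and 1 higher (30.6%), and arrays did not overlap for 7 (62%). PFK26 was at -1.33 ± 0.10 and HXK1 at -1.24 ± 0.11, and HXK2 was the higher gene, at 0.48 ± 0.14, a call that ended in the 6 arrays of IRAK2 and IRAK1 alone (adjusted p = 0.0595).

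Over the 15 arrays 8 of the 10 genes fell into 3 looser groups, given here as a description. Replicate arrays come from cells with the same plasmid, so the 15 arrays are not independent points. PGI1, PFK1 and PFK2 correlated with each other at 0.86 to 0.96 (Pearson's r, n = 15 arrays). HXK1, EMI2 and PFK26 did so at 0.86 to 0.93, and GLK1 and FBP26 at 0.88. These latter groups were not separate. FBP26 correlated at 0.82 with PFK26 and 0.76 with EMI2, and GLK1 at 0.73 with PFK26 and 0.70 with EMI2. HXK1 correlated less with GLK1 (0.46) and FBP26 (0.51). HXK2 correlated at 0.22 with HXK1 and at -0.57 with GLK1 and -0.66 with FBP26. PFK27 correlated with no other of the 10 above 0.08, and its strongest correlations were negative. They were -0.67 with EMI2, -0.56 with HXK1 and -0.53 with PFK26, but -0.49, -0.44 and -0.22 without IRAK1 replicate 1. Among all other genes, HXK2 was most like AAP1 (0.97), INO1 (0.96) and MAL33 (0.96). HXK1 was most like PCL10 (0.96), TDA10 (0.95) and AFR1 (0.94). GLK1 was most like PGM2 (0.98), GAT2 (0.97) and NCE102 (0.97), and FBP26 most like GIP2 (0.98), SAF1 (0.98) and MPO1 (0.97). For EMI2 the list was YMR206W (0.97), PKH2 (0.94) and PFK26 (0.93), and for PFK26 it was PRR2 (0.97), YPL277C (0.97) and PIG1 (0.97). PGI1 was most like TPI1 (0.97), the next isomerase of glycolysis, then DSE4 (0.94) and HEM15 (0.94). PFK1 was most like ERG5 (0.96), PFK2 (0.96) and TPO2 (0.95), and PFK2 most like RPB2 (0.97), PFK1 (0.96) and URA2 (0.95). Without IRAK1 replicate 1 these values for HXK1, HXK2, GLK1, EMI2, PGI1, PFK1, PFK2, PFK26 and FBP26 were 0.90 to 0.99. The range between the highest and the lowest group mean was 1.58 for HXK2, wider than in 93.9% of all genes, 1.37 for HXK1 (91.3%), 1.33 for PFK26 (90.9%) and 1.01 for GLK1 (82.0%). It was narrowest for PFK27 at 0.56 (46.7%).

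Further down the pathway, all 10 measured genes of lower glycolysis rose in IRAK4. Of these 6 rose in IRAK4(KD), 6 rose in IRAK1 and 1 rose in IRAK2, with TDH2 not analysed here. Of all genes 28.2% rose with IRAK4, 11.7% with IRAK4(KD), 30.6% with IRAK1 and 5.82% with IRAK2, so 1 of 10 in IRAK2 is near the share of all genes. TDH1, a glyceraldehyde phosphate dehydrogenase gene, rose by 1.52 ± 0.25 with IRAK4, 0.96 ± 0.25 with IRAK4(KD) and 1.42 ± 0.25 with IRAK1. ENO1, an enolase gene, rose by 1.30 ± 0.15 with IRAK4, 0.53 ± 0.15 with IRAK4(KD) and 1.05 ± 0.15 with IRAK1. PYK2, a minor pyruvate kinase gene, rose by 0.93 ± 0.16 in IRAK4 and 0.55 ± 0.16 in IRAK1. PGK1, phosphoglycerate kinase, rose by 0.43 ± 0.07 in IRAK4(KD), 0.50 ± 0.07 in IRAK4 and 0.51 ± 0.07 in IRAK1. ENO2, the second enolase gene, rose by 0.27 ± 0.07 in IRAK2. It also rose in IRAK4 (0.42 ± 0.07), IRAK4(KD) (0.40 ± 0.07) and IRAK1 (0.43 ± 0.07). Directly compared, IRAK2 did not differ in ENO2 from these 3 groups at the threshold (limma, adjusted p = 0.0803, 0.174 and 0.0569). In IRAK4 the count was 8 after median centring or quantile normalization. It was also 8 without Control replicate 2 or 3 or IRAK4 replicate 1 or 2, where 1839 to 2142 of all 5449 genes were called. In IRAK4(KD) the count was 4 without Control replicate 2 or 3 or any 1 of the IRAK4(KD) arrays (325 to 672 of all genes). The count in IRAK2 was 0 without Control replicate 2 or without any 1 of the IRAK2 arrays (146 to 300 of all genes). It was 4 without IRAK1 replicate 1, of which 1 was higher and 3 lower (1180 of all genes called). The medians of the lower glycolysis genes were 0.47 for IRAK4, 0.36 for IRAK4(KD), 0.45 for IRAK1 and -0.08 for IRAK2.

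Of 10 enzymes that feed or drain hexose phosphates, 5 rose and 1 fell in IRAK4, 1 fell in IRAK4(KD) (4 rose and 1 fell without IRAK1 replicate 1), 4 rose and 4 fell in IRAK1 and 2 fell in IRAK2. The count in IRAK2 was 6 without IRAK1 replicate 1 and 1 without any of the Control arrays in turn or without IRAK2 replicate 2 or 3. Over all genes 44.6% were called with IRAK4, 17.7% with IRAK4(KD), 58.7% with IRAK1 and 9.19% with IRAK2, so 1 of 10 in IRAK4(KD) is near that share. Without IRAK1 replicate 1, 1857 of all 5449 genes were called in IRAK4(KD) and 1180 in IRAK2. PGM2, the phosphoglucomutase that brings galactose to glucose 6-phosphate, rose by 1.04 ± 0.08 in IRAK4 and 1.44 ± 0.08 in IRAK1 and fell by 0.62 ± 0.08 in IRAK2. PGM1, its paralogue, fell by 0.56 ± 0.13 in IRAK2 and by 0.45 ± 0.13 in IRAK1. TPS1, which encodes trehalose phosphate synthase, rose by 1.53 ± 0.14 in IRAK4 and 1.14 ± 0.14 in IRAK1. UGP1, which makes UDP-glucose, rose by 1.32 ± 0.13 in IRAK4 and 0.60 ± 0.13 in IRAK1. FBP1, the phosphatase that opposes phosphofructokinase, fell by 0.62 ± 0.11 with IRAK4 (adjusted p = 0.000470). It fell by 1.47 ± 0.11 with IRAK4(KD) (adjusted p = 1.79e-06) and fell by 1.07 ± 0.11 with IRAK1 (adjusted p = 2.02e-06), and stood at 0.13 ± 0.11 with IRAK2 (adjusted p = 0.487).

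Of 11 genes for regulators of this pathway, 6 rose and 1 fell in IRAK4, while 1 rose and 1 fell in IRAK4(KD). In IRAK1 3 rose and 1 fell, and in IRAK2 1 fell. Beside the shares called over all genes (44.6%, 17.7%, 58.7% and 9.19% in that order of groups), the counts in IRAK4(KD) and IRAK2 are near the background and that in IRAK1 is below it. MIG2, whose product silences genes when glucose is present, fell by 1.13 ± 0.24 with IRAK4 and fell by 2.04 ± 0.24 with IRAK4(KD). SNF1, the kinase that lifts glucose repression, rose by 0.35 ± 0.10 in IRAK4(KD), 0.62 ± 0.10 in IRAK4 and 0.27 ± 0.10 in IRAK1. GCR1, an activator of glycolytic genes, rose by 0.94 ± 0.14 in IRAK4. MSN4, a stress regulator, rose by 0.71 ± 0.08 in IRAK4 and 0.83 ± 0.08 in IRAK1. In IRAK1 TYE7, another activator of glycolytic genes, rose by 0.64 ± 0.14 and RAP1 fell by 0.45 ± 0.10. TYE7 also rose in IRAK4, by 0.38 ± 0.14. MSN2 fell by 0.42 ± 0.12 in IRAK2 (adjusted p = 0.0491) and rose by 0.41 ± 0.12 in IRAK4. The total called in IRAK4(KD), 2, was 1 without Control replicate 2 or 3 or IRAK4(KD) replicate 1 or 2 (325 to 527 of all genes). The count in IRAK2 was 0 without any single array of Control or IRAK2 (146 to 405 of all genes), and 5 without IRAK1 replicate 1 (1180 of all genes).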

How the data were processed

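RNA of the 15 cultures was labelled with biotin and hybridised to Affymetrix arrays, per the labels' protocols. The authors deposited log2 values from GCRMA (version not given in the sources used here), which corrects background and summarises the probes of a probe set, per the submitters' processing notes. GCRMA sets arrays to a common scale, so a change of all genes in 1 direction would be hidden, and no detection calls were used. Of 5716 probe sets 5498 had 1 gene, 218 were left out, and the probe set with the highest mean over the arrays was kept for the 47 genes with several, which left 5449 genes. For 12 genes the symbol was updated with the RefSeq table of assembly R64.

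The 5 group means were fitted to all 15 arrays with limma 3.58.1 in R 4.3.3 (lmFit, eBayes, no filter), and 10 comparisons were made, two-sided, with Benjamini-Hochberg adjustment over all genes. Nothing in the labels says more of the replicates than that they are biological, and their number limits the precision. The 10 genes and the lists were chosen with earlier results of these data known, and all 10 are named whatever their values. For the lists up to 3 called genes with the largest change in each comparison with Control are named, and FBP1. A gene named for 1 group is also given for the other groups where it was called. The genes most like one of them are the 3 with the highest Pearson correlation over the arrays, printed for most of them. The fit was tested on simulated data before use. Alternatives were median centring, quantile normalization, a filter (log2 of at least 6 on at least 3 arrays), means of probe sets, trend and robust eBayes, array weights, the 6 arrays of a comparison alone, a 2-fold limit, a block on the replicate number, and leaving out each array. The block within 6 arrays was added after the data were seen. For arrays with the same number, deviations from the group means correlated at 0.19, 0.10 and 0.35 between IRAK1 and Control. Each was over 0.1 before rounding and so met the limit set for a pairing by number. No label says what a number stands for. In the other 9 comparisons at least 1 number stayed below that limit. Negative values of similar size occurred, down to -0.41 between IRAK4 and IRAK4(KD) and -0.38 between IRAK4 and Control. Meeting the limit thus does not show that the arrays were paired. Python 3.11.15 and matplotlib 3.10.9 drew the figures. Sequences and genome positions were not used here.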

Additional observations from a re-analysis of the deposited data

How the results depend on the processing

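With a 2-fold limit the 10 genes gave 1 call for IRAK4 against Control, 0 for IRAK4(KD), 2 for IRAK1 and 0 for IRAK2, 1 in IRAK4 against IRAK4(KD), 2 in IRAK1 and 1 in IRAK2 against IRAK4, 1 in IRAK1 and 0 in IRAK2 against IRAK4(KD) and 3 in IRAK2 against IRAK1. Over all 5449 genes that limit left 284, 86, 497 and 13 calls against Control in the same order. It left 188 in IRAK4 against IRAK4(KD), and 332 in IRAK1 and 368 in IRAK2 against IRAK4. Against IRAK4(KD) it left 538 in IRAK1 and 68 in IRAK2, and 561 in IRAK2 against IRAK1. In IRAK2 against Control, where 1 of the 10 genes was called, the count was 2 with trend and robust eBayes, 3 with array weights and 2 in the 6 arrays alone. Over all genes these settings gave 532, 2591 and 1407 calls. The 6 arrays of IRAK1 and IRAK4 with the replicate block gave 5 of the 10 genes in place of 8, and 1044 of all genes in place of 2523. With single arrays left out the counts of the 10 genes were 6 to 7 for IRAK4 against Control, 3 to 8 for IRAK4(KD), 6 to 7 for IRAK1 and 0 to 2 for IRAK2, 4 to 6 in IRAK4 against IRAK4(KD), 7 to 8 for IRAK1 and 6 to 7 for IRAK2 against IRAK4, 9 to 9 in IRAK1 and 6 to 8 in IRAK2 against IRAK4(KD) and 7 to 8 in IRAK2 against IRAK1. Over all genes the counts against Control were 1839 to 3042, 325 to 1857, 2794 to 3318 and 146 to 1180 in the same order. They were 1493 to 2548 in IRAK4 against IRAK4(KD), and 2129 to 2922 in IRAK1 and 2356 to 3278 in IRAK2 against IRAK4. Against IRAK4(KD) they were 2777 to 3310 in IRAK1 and 799 to 2213 in IRAK2, and 2823 to 3327 in IRAK2 against IRAK1. The replicate number as a block over all arrays gave 6, 7, 6 and 1 calls against Control (2345, 861, 3157 and 435 over all genes). It ended the call of PFK27 in IRAK1 (-0.56) and added EMI2 in IRAK4 against IRAK4(KD) (-0.26) and PFK26 in IRAK2 against IRAK4 (-0.23), and it changed no other call of these genes. Of 63 called differences of single genes, 50 kept their call and direction under every alternative other than the 2-fold limit, 13 lost it under at least 1, and 0 changed direction. A further 14 differences gained a call under at least 1. Why a result moved was not tested, except that the 2-fold limit removes smaller changes by construction. Means of probe sets and the filter on low values changed no call, since each gene has 1 probe set and all 10 pass. The arrays carry no detection calls, so signal over background is unknown. Over all genes, the count called in IRAK4(KD) against Control was 967, but 325 without Control replicate 3 and 1857 without IRAK1 replicate 1, and in IRAK2 against Control it was 501, but 146 without IRAK2 replicate 3 and 1180 without IRAK1 replicate 1. With array weights it was 2683 in IRAK4(KD) and 2591 in IRAK2 against Control, 2890 in place of 1904 in IRAK4 against IRAK4(KD) and 2776 in place of 1448 in IRAK2 against IRAK4(KD). In the 6 arrays alone these were 1728 and 1407 against Control and 2336 in IRAK2 against IRAK4(KD), and 1486 in place of 2523 in IRAK1 against IRAK4.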
